A study of Homo sapiens with 10 samples.

Results

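DEAD-box and DEAH-box proteins are RNA helicases named after the one-letter amino acid code of a motif in their ATP-binding core. They use ATP to unwind short RNA duplexes or to remodel complexes of RNA and protein, and they act in splicing, in ribosome assembly in the nucleolus, in translation, and in the export and turnover of mRNA. They were followed here in MOLT-4, an established human T-cell acute lymphoblastic leukaemia line, over 6 h of exposure to MABL, an antibody against CD47. Members were all probe sets whose single platform gene symbol begins with DDX or DHX and a number, without the Y-linked DDX3Y. The rule found 68 of the 22283 probe sets of the array, for 41 symbols. Of these, 2 probe sets read DHX9-AS1, an antisense RNA and not a helicase, and both lay below the filter on low values. The other 66 probe sets covered 40 helicase genes, and 22 of them, for 16 genes, reached the filter, a log2 level of 5 or more (a deposited value of 25 or more) on at least 2 of the 10 arrays.

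The 10 arrays held 2 replicates at each of 5 times, 0 h, 0.5 h, 1 h, 3 h and 6 h. The labels list for all of them, also at 0 h, 10 ug/mL MABL and 50 ug/mL GAM, an abbreviation the labels do not spell out, and every array was of the one cell line. No untreated array of the same time in culture was analysed here, so antibody, GAM, time and handling cannot be told apart, and nothing says that replicates came from separate cultures, so a p-value here sets a difference against the spread of these arrays alone, and that spread may be technical. Precision is limited by the small number of arrays, and in bulk RNA fewer cells and less RNA per cell cannot be told apart. Levels are square roots of the deposited GCRMA values read as log2, a reading of the data that the authors do not state and on which every log2 change and fold depends. A change is called where its limma p, adjusted over all 4276 tested probe sets, is under 0.05. The arrays of a single later time did not overlap those of 0 h in 60.6% to 68.5% of all tested probe sets. Among the 22 helicase probe sets it was 59.1% to 77.3%, so such a gap between arrays says little by itself. Among 16 T-cell markers, 15 had a probe set and 11 passed the filter, with TRBC1 at 14.1 and CD3D at 12.4 on average, while CD2, CD4, CD7 and CD8A lay below it. Of 11 markers of other cells with a probe set only COL1A1 passed (5.24), and the mean level of that list lay between 2.91 and 3.00 at all times. The mean of the 18S ribosomal RNA probe sets averaged 9.03 at 0 h and 10.4, 10.7, 11.2 and 11.7 at the later times in order. The spike-in mean lay 0.27, 0.25, 0.76 and 0.63 above 0 h at the later times, and the median of all tested probe sets lay 0.13, 0.29, 0.31 and 0.25 below it.

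Called changes against 0 h, at any later time and in either direction, lay in 4 of the 16 helicase genes. By the limma F test over all times 7 of the 22 helicase probe sets were called (31.8%), against 39.6% of all tested probe sets. At each single time 15.1% to 26.4% of all tested probe sets were lower than at 0 h. DDX3X, a helicase of translation initiation on structured mRNAs, was lower at every later time, by 1.60 at 0.5 h and 1.38 at 6 h on the log2 scale. DHX15, the DEAH-box protein that takes apart the excised intron complex, was lower at 1 h and 3 h with both of its probe sets and at 0.5 h with one of them, with changes of up to -1.50 when levels under 5 are set to 5, and was higher at 6 h than at 1 h. DDX17, a cofactor of transcription, splicing and microRNA processing, had one probe set that was lower at 1 h, 3 h and 6 h and another that was higher at 6 h. DDX24, a nucleolar helicase, had one probe set that fell at 0.5 h, 1 h and 3 h and another that did not pass the test at any time. The other 12 genes past the filter had no called change against 0 h.

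These 4 genes are shown by the 250 bases before their first transcript start in the RefSeq promoter table (GRCh38.p14), so that a reader can see what lies before the genes that moved. They are written 5' to 3' on the gene's strand, with matches to the ETS core CCGGAA, searched on both strands, in capitals. DHX15 lies at chr4:24584555-24584804 on the minus strand, DDX3X at chrX:41333058-41333307 on the plus strand, DDX17 at chr22:38506312-38506561 on the minus strand and DDX24 at chr14:94081203-94081452 on the minus strand. DDX3X has 3 entries in the table, of which the first is shown, and the other 2 hold no match to either motif searched.
DHX15: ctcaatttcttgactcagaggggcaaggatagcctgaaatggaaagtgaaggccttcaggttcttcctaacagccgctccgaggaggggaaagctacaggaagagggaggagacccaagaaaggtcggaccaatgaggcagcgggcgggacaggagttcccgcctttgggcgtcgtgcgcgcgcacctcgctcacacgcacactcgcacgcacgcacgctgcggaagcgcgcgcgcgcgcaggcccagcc
DDX3X: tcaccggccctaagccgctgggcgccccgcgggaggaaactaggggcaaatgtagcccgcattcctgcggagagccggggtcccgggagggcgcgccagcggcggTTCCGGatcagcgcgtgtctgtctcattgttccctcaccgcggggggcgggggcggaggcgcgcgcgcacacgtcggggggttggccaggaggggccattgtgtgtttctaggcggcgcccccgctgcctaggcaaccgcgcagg
DDX17: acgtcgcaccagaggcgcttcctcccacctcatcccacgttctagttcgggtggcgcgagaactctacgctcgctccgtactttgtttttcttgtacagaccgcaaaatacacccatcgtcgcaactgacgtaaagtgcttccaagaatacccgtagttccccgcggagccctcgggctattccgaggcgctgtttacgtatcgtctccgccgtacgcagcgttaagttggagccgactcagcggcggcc
DDX24: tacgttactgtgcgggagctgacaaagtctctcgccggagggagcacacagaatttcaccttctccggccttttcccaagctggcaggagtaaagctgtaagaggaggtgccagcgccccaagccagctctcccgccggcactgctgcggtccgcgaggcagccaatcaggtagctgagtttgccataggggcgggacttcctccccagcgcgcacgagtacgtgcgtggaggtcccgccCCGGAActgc
The shown DDX3X entry and DDX24 held an ETS match in these windows, DHX15 held one only in the 50 bases after its start, and DDX17 held none. Over the whole window of 250 bases before to 50 after the start, CCGGAA stood in 10 of the 15 helicase genes past the filter that had an entry (66.7%), in 40.6% of the 2392 tested genes with an entry and in 20.1% of all 27305 genes of the table. The E-box CACGTG stood in 1 of the 15 (6.67%), in 14.8% of tested genes and in 8.77% of all. A match is a description of the letters and not a binding site.

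DHX15 was read by a pair of probe sets past the filter. With 201385_at its level was 7.59 and 7.40 at 0 h, 6.50 and 6.53 at 0.5 h, 6.19 and 5.90 at 1 h, 6.75 and 5.68 at 3 h, and 7.12 and 7.36 at 6 h. All arrays of 0.5 h to 3 h lay below both 0 h arrays, the replicates of 3 h stood far apart, and the 6 h arrays lay just under those of 0 h. The change was -0.98 at 0.5 h (SE 0.30, limma adjusted p = 0.0591), -1.45 at 1 h (adjusted p = 0.00827), -1.28 at 3 h (0.0159) and -0.26 at 6 h (0.578, 95% confidence interval -0.94 to 0.43). With 201386_s_at the level was 6.89 and 6.12 at 0 h, 4.09 and 4.07 at 0.5 h, 3.99 and 4.03 at 1 h, 4.49 and 4.00 at 3 h, and 5.65 and 6.04 at 6 h. All arrays of 0.5 h to 3 h were below the filter level of 5, and both arrays of 6 h were above it. The changes were -2.42, -2.49 and -2.26 at 0.5, 1 and 3 h (SE 0.26 each, adjusted p = 0.00299, 0.000794 and 0.00209), and -0.66 at 6 h (0.10, interval -1.26 to -0.06). Since that probe set was under the filter level at 0.5 to 3 h, the sizes of these 3 changes are differences to background. With levels under 5 set to 5 they were each -1.50 (adjusted p = 0.00657, 0.00296 and 0.00426). As this probe set reached 5 only at 0 h and 6 h, its p-values are a description and not support.

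The level of DHX15 was higher at 6 h than at 1 h by 1.19 with 201385_at (SE 0.30, adjusted p = 0.0240) and by 1.83 with 201386_s_at (SE 0.26, adjusted p = 0.00225; 0.84 with the floor at 5, adjusted p = 0.0364). In both probe sets the mean of 6 h was the nearest to that of 0 h, and in 201385_at the lowest mean was that of 1 h. The calls of 201385_at depended on single arrays. Its change at 1 h had an adjusted p of 0.0634 without 0 h replicate 1 and of 0.0655 without 1 h replicate 2, that at 3 h had 0.0999 without 0 h replicate 1, and the difference of 6 h and 1 h had 0.0577 to 0.119 without any one of the 4 arrays it compares. The changes of 201386_s_at at 0.5 h and 1 h, and its difference between 6 h and 1 h, stayed called in all 21 other settings that gave a value. A filter of 7 left this probe set out and gave none. Only the 4 arrays of 0 h and 6 h read it at 5 or more, so it passed the filter through the times where it was high. Its tests compare those same times with the others, so the calls that stayed are not support for the changes. All these settings use the same arrays or fewer of them, so they are not separate evidence.

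**Figure D1:**
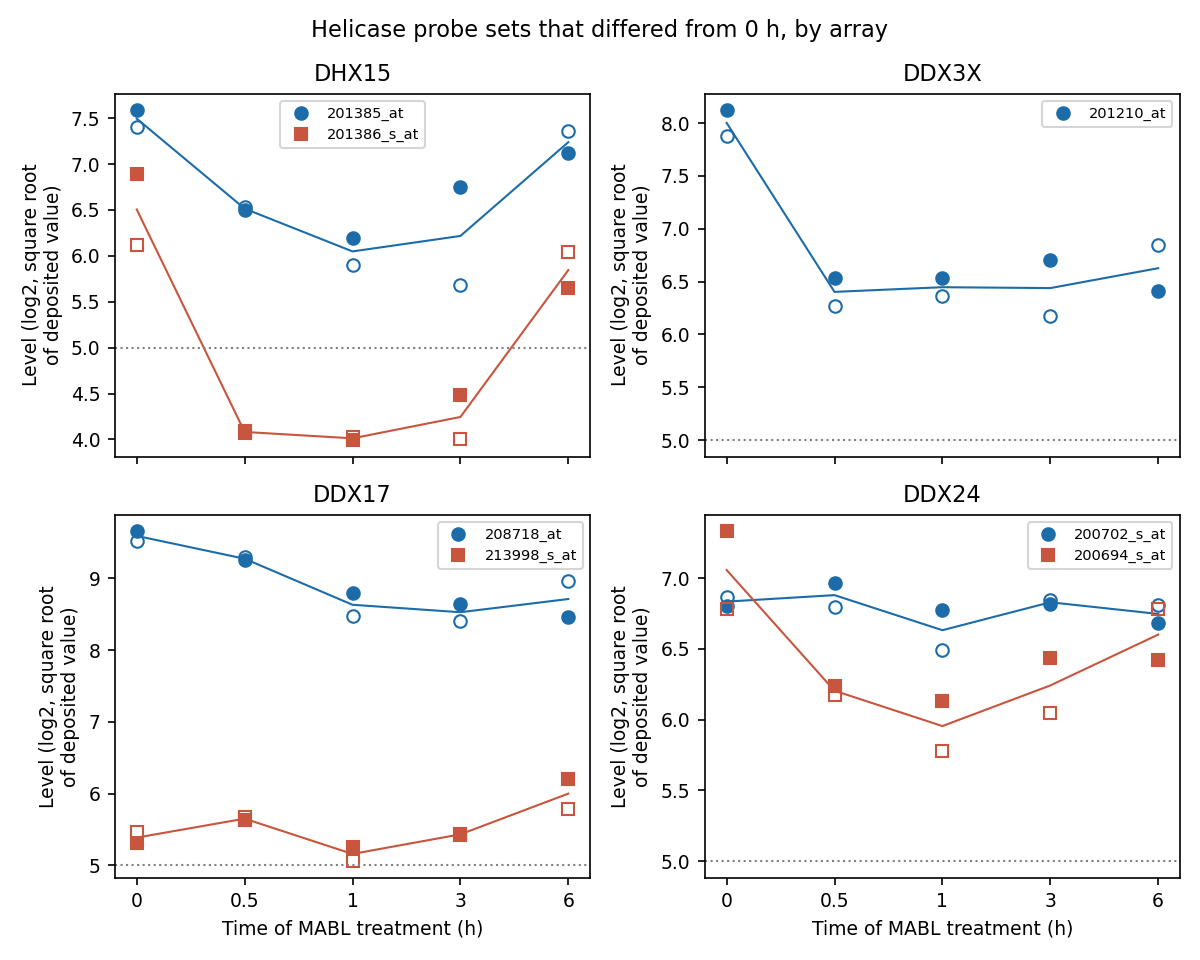
Log2 level (y axis) of the named helicase probe sets against time in hours (x axis, categories 0 to 6 h), filled points for replicate 1, open points for replicate 2 and a line through the mean of both arrays. The dotted line is the filter level of 5. DHX15 dips at 0.5 to 3 h and is higher again at 6 h, where 201385_at lies near its 0 h level and both arrays of 201386_s_at lie below those of 0 h, whereas DDX3X lies between 6.18 and 6.84 on all arrays after 0 h.

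DDX3X was past the filter with 201210_at, at 8.12 and 7.88 at 0 h, 6.54 and 6.27 at 0.5 h, 6.53 and 6.36 at 1 h, 6.70 and 6.18 at 3 h, and 6.41 and 6.84 at 6 h. Every later array lay more than 1 log2 unit below both 0 h arrays, and the later times overlapped one another. The changes were -1.60, -1.56, -1.56 and -1.38 (SE 0.21 each, limma adjusted p = 0.00429, 0.00160, 0.00280 and 0.00391), which is 3.03-, 2.94-, 2.96- and 2.59-fold lower than at 0 h. The difference between 6 h and 1 h was 0.18 (adjusted p = 0.601, interval -0.31 to 0.67). The calls of DDX3X stayed without any one array. Another DDX3X probe set, 212515_s_at, reached 5 on 1 array only: it had 4.78 and 5.18 at 0 h and lay between 3.69 and 3.82 on all 8 later arrays. DDX3X has a near-identical Y-linked copy, whose RNA the probes may also bind. Whether the return of DHX15 differs from the course of DDX3X was not tested.

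DDX17, read by 208718_at, had 9.65 and 9.52 at 0 h, 9.25 and 9.29 at 0.5 h, 8.79 and 8.47 at 1 h, 8.64 and 8.41 at 3 h, and 8.45 and 8.97 at 6 h. All later arrays lay below both 0 h arrays, by little at 0.5 h and by more from 1 h. The change was -0.32 at 0.5 h (SE 0.19, limma adjusted p = 0.310), then -0.96, -1.06 and -0.88 at 1, 3 and 6 h (0.00622, 0.00541 and 0.0116). The other DDX17 probe set, 213998_s_at, had 5.31 and 5.46 at 0 h, 5.63 and 5.67 at 0.5 h, 5.26 and 5.06 at 1 h, 5.44 and 5.42 at 3 h, and 6.21 and 5.79 at 6 h. Its 6 h arrays were above all others, with a change of 0.61 (SE 0.15, adjusted p = 0.0191), and its difference between 6 h and 1 h was 0.84 (adjusted p = 0.00576). At 6 h the probe sets of the one gene therefore moved in opposite directions. The call of 208718_at at 1 h ended when 0 h replicate 1 was left out (adjusted p = 0.0507), or when 1 h replicate 2 was (0.0532), and that at 6 h ended without the first replicate of 0 h (0.0787) or of 6 h (0.0610). The rise of 213998_s_at at 6 h likewise ended without the first replicate of 0 h (0.116) or of 6 h (0.0974).

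DDX24, which takes part in the assembly of the large ribosomal subunit in yeast, was read brightest by 200702_s_at. That probe set had 6.80 and 6.87 at 0 h, 6.96 and 6.80 at 0.5 h, 6.77 and 6.49 at 1 h, 6.81 and 6.84 at 3 h, and 6.68 and 6.81 at 6 h. Only at 1 h did both arrays lie below those of 0 h, and the changes were 0.05, -0.20, -0.0047 and -0.09 (limma adjusted p = 0.277 or more). The other probe set, 200694_s_at, had 7.33 and 6.78 at 0 h, 6.24 and 6.17 at 0.5 h, 6.13 and 5.78 at 1 h, 6.43 and 6.05 at 3 h, and 6.42 and 6.78 at 6 h. Its arrays of 0.5 h to 3 h lay below both 0 h arrays, with changes of -0.85, -1.10 and -0.81 (SE 0.23 each, adjusted p = 0.0360, 0.00793 and 0.0294), and of -0.46 at 6 h (0.177). These 3 calls were lost without 0 h replicate 1 (0.228, 0.0602 and 0.182). That of 0.5 h was also lost without 0.5 h replicate 1 (0.109) or replicate 2 (0.170), that of 1 h without 1 h replicate 2 (0.0659) and that of 3 h without 3 h replicate 2 (0.163). The DDX24 probe sets disagreed at 0.5 h to 3 h, and why they did was not tested.

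The 18S and spike-in levels moved with time, and with either as a covariate few probe sets of the whole array were called. With the 18S level these were 9, 87, 0 and 6 of all 4276 at 0.5, 1, 3 and 6 h, and with the spike-in level 234, 789, 0 and 21, so a lost call in these fits is not particular to a helicase. With the 18S level DHX15 201386_s_at, past the filter only through 0 h and 6 h, stayed called at 0.5 h and 1 h (adjusted p = 0.0392 and 0.0343). No other helicase change against 0 h stayed called. Those of DDX3X were then -1.22, -1.11, -0.97 and -0.66 (adjusted p = 0.107, 0.0752, 0.374 and 0.592). Those of DDX17 208718_at at 1, 3 and 6 h were -0.78, -0.83 and -0.59 (0.197, 0.432 and 0.674), and that of 213998_s_at at 6 h was 0.17 (0.896). Those of DHX15 201385_at at 1 h and 3 h were -0.98 and -0.67 (0.270 and 0.680), and those of DDX24 200694_s_at at 0.5, 1 and 3 h were -0.50, -0.68 and -0.27 (0.489, 0.283 and 0.871). With the spike-in level all helicase calls of 3 h and 6 h against 0 h were lost, as was that of DDX24 at 0.5 h (0.156), and the 5 of 1 h stayed. The difference of 6 h and 1 h was lost with the spike-in level for DHX15 201385_at (0.139) and DDX17 213998_s_at (0.0622), and stayed for both with the 18S level (0.0258 and 0.0297).

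Counted over the 22 probe sets, 3 were lower at 0.5 h (13.6%), 5 each at 1 h and 3 h (22.7%), and 2 at 6 h (9.09%). Of all tested probe sets 15.1%, 24.2%, 26.4% and 21.6% were lower at these times. None of the 22 was higher at 0.5, 1 or 3 h by limma, against 1.92%, 4.14% and 2.53% of all, and 1 was higher at 6 h against 4.07%. The shares of helicases called lower were thus near that of all tested probe sets at 0.5 to 3 h and below it at 6 h. By the F test over all times 7 of 22 were called (31.8%), against 39.6% of all. All 4 comparisons share the 0 h arrays. Between 1 h and 0.5 h, and between 3 h and 1 h, limma called 0 of 22 (2 each at an unadjusted p under 0.05), against 0.0468% and 3.77% of all. Between 6 h and 3 h, 2 were higher (5% of all), DHX15 201386_s_at by 1.60 (adjusted p = 0.0110) and DDX41 by 0.50 (adjusted p = 0.0312). That of DHX15 was 0.84 with levels under 5 set to 5 (0.0762), and its call was also lost without 3 h replicate 2 (0.0656), without 6 h replicate 2 (0.0692), with only the arrays compared (0.103) and with no filter (0.110). Between 6 h and 1 h, 3 were higher (12.2% of all) and 1 was lower (11.7% of all). By the submitters' fold rule, with both replicates under 0.5 times the geometric mean at 0 h, 2, 3, 2 and 1 were lower, against 5.99%, 11.4%, 6.69% and 4.09% of all.

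**Figure D2:**
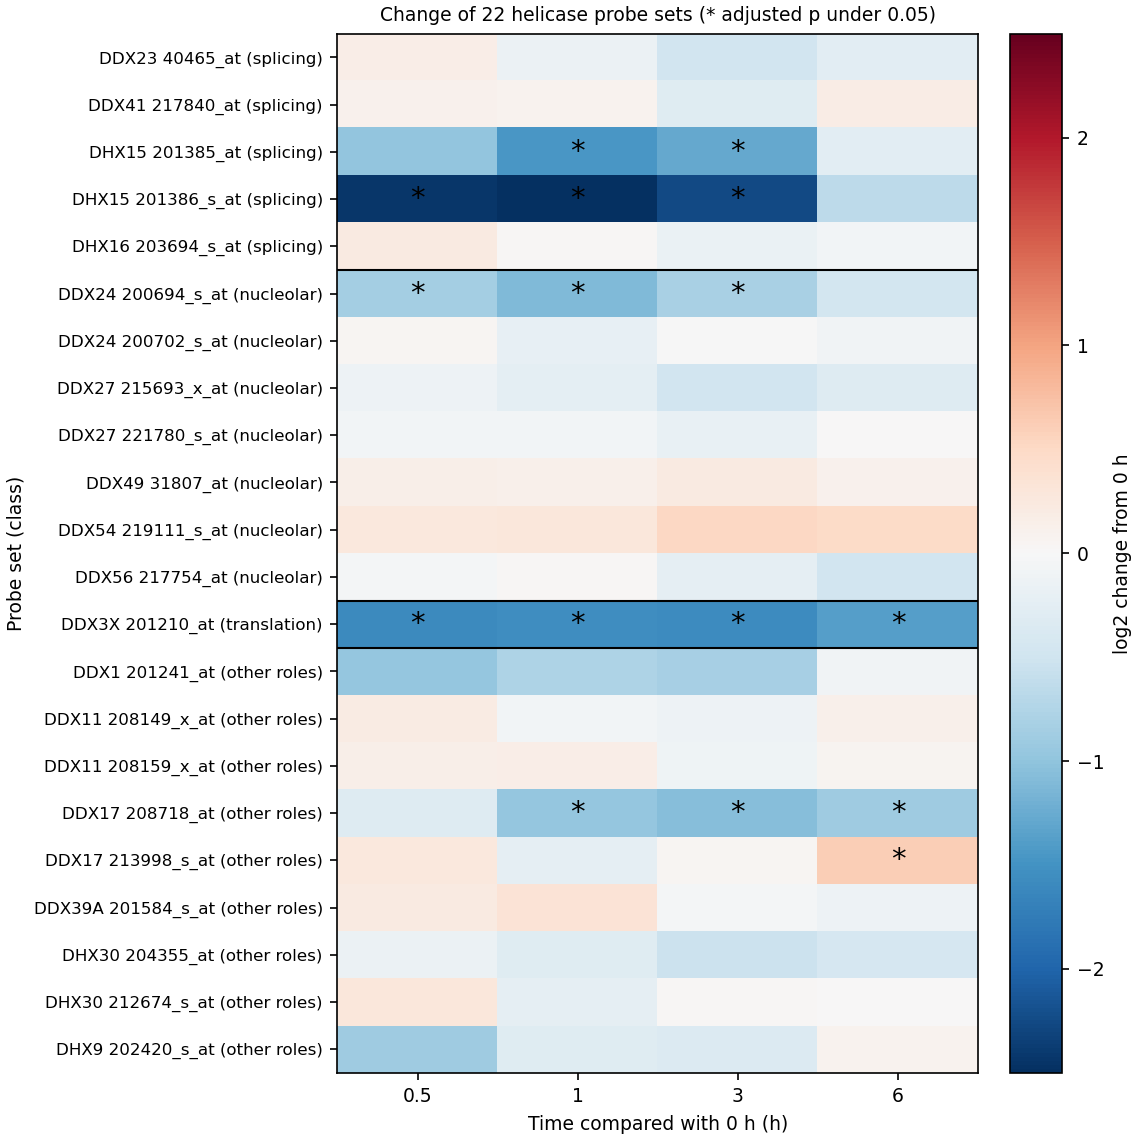
Log2 change from 0 h (colour, blue lower and red higher) of the 22 helicase probe sets past the filter (rows, by class) at 0.5, 1, 3 and 6 h (columns); a star marks a limma adjusted p under 0.05. Blue stars are confined to DHX15, DDX24, DDX3X and DDX17 among these 22, and 1 star, DDX17 213998_s_at at 6 h, stands on red.

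Among the splicing helicases, 9 of 10 genes had a probe set and 4 passed the filter. Beside DHX15 these were DDX41, a factor of the late steps of splicing, DDX23, which helps the tri-snRNP to join the spliceosome, and DHX16, which drives an early remodelling of the active spliceosome. DDX41 had 8.08 and 8.12 at 0 h, 8.14 and 8.25 at 0.5 h, 8.20 and 8.18 at 1 h, 7.88 and 7.70 at 3 h, and 8.21 and 8.37 at 6 h. Only its 3 h arrays lay below those of 0 h, with a change of -0.31 (SE 0.11, limma adjusted p = 0.0654), and the 6 h level was above that of 3 h by 0.50, a call lost in 10 other settings, among them without 3 h replicate 2 (0.150) or 6 h replicate 2 (0.144). DDX23 changed by 0.16, -0.15, -0.47 (adjusted p = 0.0764) and -0.25 at 0.5, 1, 3 and 6 h, and DHX16 by 0.23, 0.02, -0.17 and -0.08, none of them called. With the brightest probe set of each gene, 1 of the 4 was lower at 1 h and at 3 h, DHX15 each time, against 22.6% and 25.8% of all 2819 tested genes. The class medians were 0.13, -0.06, -0.39 and -0.17, beside 0.03, -0.01, -0.14 and -0.13 over all tested genes.

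Of 16 nucleolar helicases, 11 had a probe set and 5 passed the filter. These were DDX24, DDX27, which acts in the processing of ribosomal RNA precursors, DDX54, DDX56 and DDX49, the last known in yeast as a factor of the small ribosomal subunit. DDX54 had 6.84 and 6.84 at 0 h, 6.93 and 7.28 at 0.5 h, 7.15 and 7.09 at 1 h, 7.37 and 7.35 at 3 h, and 7.58 and 7.06 at 6 h. All later arrays lay above both 0 h arrays, with changes of 0.27, 0.28, 0.52 (limma adjusted p = 0.0606) and 0.48 (0.0820), none called. DDX49 changed by 0.15, 0.12, 0.22 and 0.11, DDX56 by -0.05, 0.02, -0.23 and -0.48 (adjusted p = 0.0795 at 6 h) and DDX27 (215693_x_at) by -0.13, -0.25, -0.47 and -0.31 (its other probe set, 221780_s_at, by -0.19 to 0.01). With the brightest probe set of each gene limma called 0 of the 5 at any time against 0 h. Of all 2819 tested genes 13.8%, 22.6%, 25.8% and 20.4% were lower at 0.5, 1, 3 and 6 h. Higher were 1.7%, 4.04%, 2.34% and 4.4%. With 5 genes a count of 0 therefore says little. DDX24 entered this count with its brightest probe set, and its other probe set was called lower at 0.5, 1 and 3 h. The class medians were 0.05, 0.02, -0.0047 and -0.09, beside 0.03, -0.01, -0.14 and -0.13 over all tested genes. The range of the class at 3 h ran from -0.47 to 0.52. DDX21, a nucleolar helicase of rRNA transcription and processing, lay below the filter, at 2.65 to 3.21 on all arrays.

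The signs of the small changes depended on the scaling. With equal array medians, which shift the medians of all tested genes to 0.15, 0.27, 0.18 and 0.12, the splicing medians were 0.26, 0.22, -0.08 and 0.08 and the nucleolar ones 0.17, 0.31, 0.31 and 0.16. Then 5 of 22 probe sets were lower and 5 higher at 1 h, against 19.5% and 32.5% of all, with DDX11, DDX39A, DDX41, DDX49 and DDX54 higher by 0.45, 0.63, 0.38, 0.41 and 0.57. DDX49 (0.53) and DDX54 (0.83) were the 2 called higher at 3 h, against 23.1% of all. DDX54 (0.73), DDX41 (0.44) and DDX17 213998_s_at (0.86) were the 3 at 6 h, against 14.3% of all. DDX3X stayed lower under this scaling, by 1.47, 1.27, 1.25 and 1.13.

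**Figure D3:**
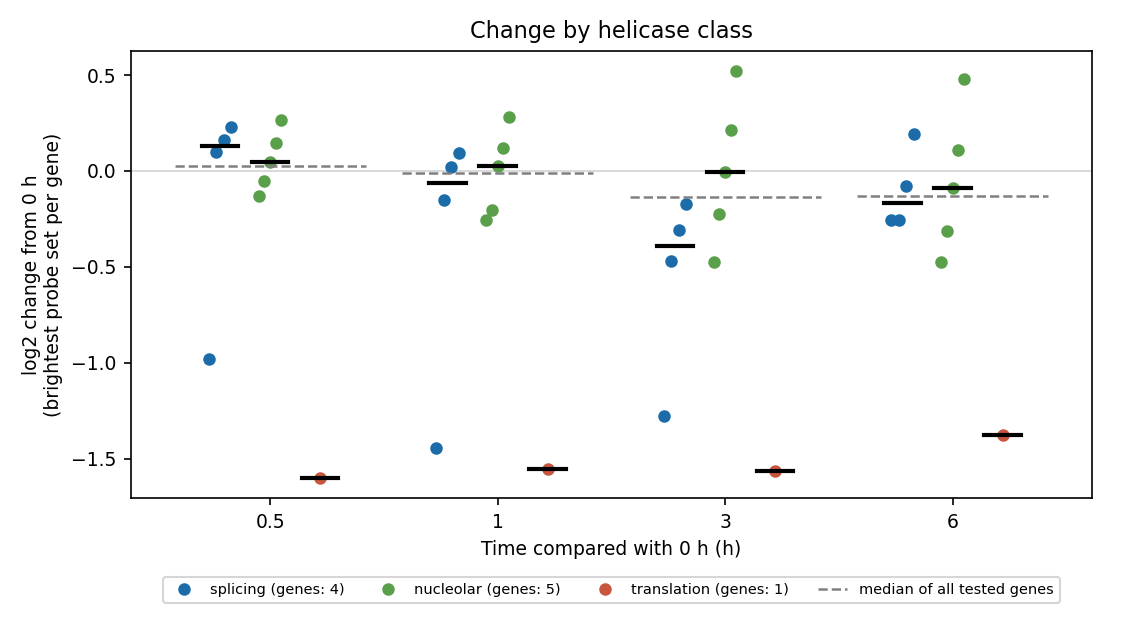
Log2 change from 0 h (y axis) at 0.5, 1, 3 and 6 h (x axis) of the brightest probe set of each helicase gene past the filter, by class, with the class median as a bar and the median of all tested genes as a dashed line. The splicing and nucleolar medians lie between -0.39 and 0.13, and the 1 translation gene, DDX3X, lies between -1.60 and -1.38.

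Of the 3 translation helicases, DDX3X alone passed the filter, so its changes are those of the class. DDX6, a repressor of translation and an activator of decapping, lay between 3.41 and 3.68 on all 10 arrays. DHX29, which helps the small ribosomal subunit to scan structured leaders, lay between 2.60 and 2.77 with both of its probe sets. Neither was thus measured above the filter level, and no change is read from them.

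The remaining 6 genes past the filter have other roles. DDX39A, an mRNA export helicase, had 9.71 and 10.01 at 0 h, 10.13 and 10.03 at 0.5 h, 10.16 and 10.25 at 1 h, 9.96 and 9.64 at 3 h, and 9.77 and 9.70 at 6 h. Its arrays of 0.5 h and 1 h lay above both 0 h arrays, and those of 3 h and 6 h overlapped the 0 h range. Its 6 h level was below that of 1 h by 0.47 on the log2 scale (SE 0.14, limma adjusted p = 0.0474), a call lost in 12 of 22 other settings, each leaving-out of a 1 h or 6 h array among them (0.109 to 0.174) and either 0.5 h array (0.0696). DDX1, a part of the tRNA ligase complex, had 5.24 and 5.00 at 0 h, 4.33 and 3.99 at 0.5 h, and 4.40 and 5.67 at 6 h. Its replicates at 6 h differed by more than its change at 0.5 h (-0.96, adjusted p = 0.119). DHX9, a helicase of double-stranded RNA that acts in transcription, changed by -0.88 at 0.5 h (adjusted p = 0.0789), where its arrays stood at 6.94 and 6.17, against 7.55 and 7.33 at 0 h, and with equal array medians that change was called (-0.75, adjusted p = 0.0347). DHX30, a factor of mitochondrial ribosome assembly, changed by -0.23 to 0.28 with 212674_s_at and by -0.54 to -0.15 with 204355_at. DDX11, a DNA helicase of sister chromatid cohesion with near-identical copies that its _x_at probe sets may also read, changed by -0.11 to 0.16 with 208159_x_at and by -0.13 to 0.21 with 208149_x_at. In the main fit, on square roots and without equal array medians, limma called none of the changes of DDX1, DHX9, DHX30 and DDX11 against 0 h.

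**Figure D4:**
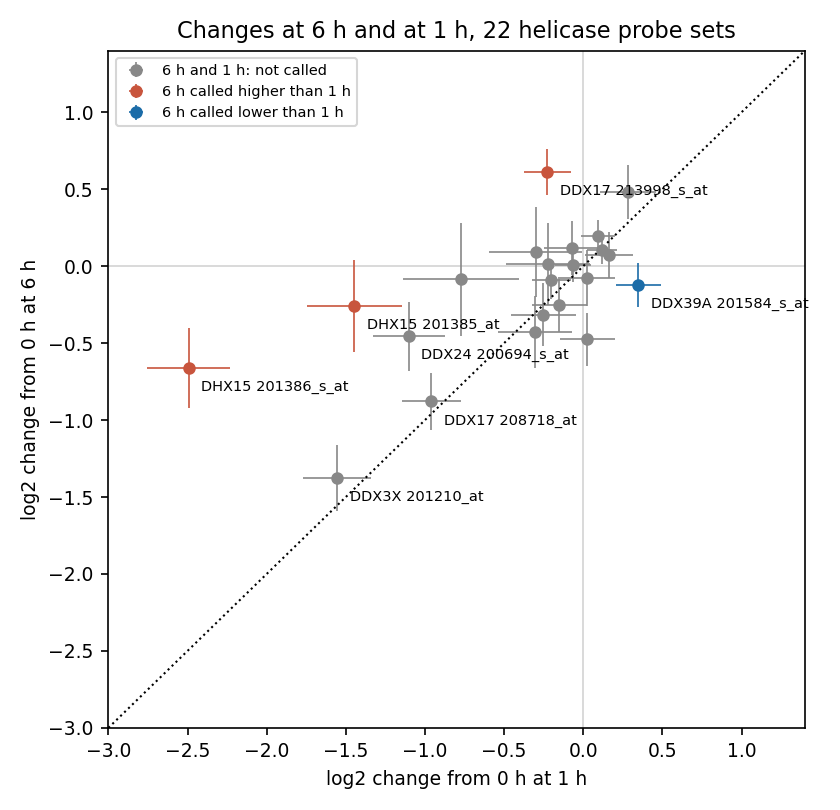
Log2 change from 0 h at 6 h (y axis) against that at 1 h (x axis) for the 22 helicase probe sets; bars are the SE of the fit, the dotted line marks equal changes, and colours mark a called difference between 6 h and 1 h. Both axes share the 0 h arrays. DHX15 (both probe sets) and DDX17 213998_s_at lie above the line as called, DDX39A lies below it, and DDX3X and DDX17 208718_at lie on or near it.

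Lists of genes that work with these helicases were read in the same fit, 1 probe set a gene, where it passed the filter. Of all 2819 tested genes 13.8%, 22.6%, 25.8% and 20.4% were lower, and 1.7%, 4.04%, 2.34% and 4.4% higher, at 0.5, 1, 3 and 6 h. Of 6 genes, namely subunits and cofactors of the cap-binding complex eIF4F, with which DDX3X works, and the eIF4G-like factor EIF4G2, 5 passed the filter. Of these, 3, 3, 4 and 2 were lower and 0 higher at 0.5, 1, 3 and 6 h, with medians of -0.76, -0.68, -0.66 and -0.48. With equal array medians 3, 3, 2 and 2 were lower, with medians of -0.63, -0.39, -0.34 and -0.24. The eIF4G-like factor EIF4G2 changed by -1.14, -1.42, -1.38 and -0.34 (limma adjusted p = 0.00160 at 1 h and 0.241 at 6 h). The cap-binding protein EIF4E changed by -1.30, -1.22, -0.98 and -0.48, the cofactor EIF4B by -0.76, -0.68, -0.66 and -0.72, and the scaffold EIF4G1 by -0.24, -0.36, -0.34 and -0.79 (adjusted p = 0.00464 at 6 h). EIF4G2 was higher at 6 h than at 1 h by 1.08 (adjusted p = 0.00642). EIF4A3, the helicase of the exon junction complex and the 1 past the filter of 10 helicases named outside the rule, was lower at 6 h by 0.70 (adjusted p = 0.00693).

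Among 13 proteins with a G-patch, a domain that activates DEAH-box helicases such as DHX15 in several of them, 4 passed the filter and 1, 1, 2 and 1 were lower, with 0 higher (1 at each time with equal array medians). SON, a splicing cofactor, averaged 6.03 at 0 h and 3.74 to 4.36 at the later times, so it passed the filter through 0 h, and its change is a bound. With levels under 5 set to 5 it was -1.03 at each time. SON is among those counted as lower at each time. The filter took it in through the same 0 h arrays that the test compares, so no p is given for it. RBM10 was lower at 3 h by 0.52 (limma adjusted p = 0.0261), and CHERP (-0.51) and RBM17 (0.02) were not called at 1 h. Of 8 decapping partners of DDX6, 3 passed the filter and 2, 2, 2 and 0 were lower (1, 1, 1 and 0 with equal array medians). The decapping enzyme DCP2 averaged 5.31 at 0 h and 3.09 to 3.21 at 0.5 to 3 h, so it too passed through 0 h. With levels under 5 set to 5 its change was -0.31 at each of these times. DCP2 is among those counted as lower at these times, and for the same reason no p is given for it. At 1 h LSM14A was at -0.61 (adjusted p = 0.0421), and EDC4, at -0.04, was not called. Of 8 mRNA export genes 2 passed the filter, THOC5 (0.49 at 1 h) and NUP214 (0.12), and limma called 0 of them against 0 h. With equal array medians both were called higher at 1 h, as were 32.8% of all 2819 tested genes. None of the 6 genes of the Drosha and SMN complexes passed the filter.

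Of 38 core proteins of the spliceosome 31 passed the filter, of which 2, 5, 7 and 6 were lower and 0 higher at 0.5, 1, 3 and 6 h, with medians of 0.09, 0.01, -0.09 and -0.18. SF3B1, a subunit that helps to bind the branch site, had means under 5 at 0.5 h to 3 h. With levels under 5 set to 5 it changed by -1.05, -1.12, -1.09 and -0.10 (limma adjusted p = 0.00146 at 1 h and 0.652 at 6 h). PRPF8, the scaffold of the catalytic centre, changed by -0.29, -0.82, -0.70 and -0.88 (adjusted p = 0.00445 at 1 h). SART3 (-0.67) and SNRPB2 (-0.41) were lower at 1 h too. With that floor 3, 5, 7 and 8 of the 31 were lower. The scaling changed the split: with equal array medians 1, 2, 4 and 3 of the 31 were lower, against 14.4%, 17.9%, 17.4% and 13.5% of all genes, and 1, 8, 7 and 1 were higher, against 7.13%, 32.8%, 23.5% and 14.8%.

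The other 44 helicase probe sets did not reach the filter, and 24 genes had none that did. These were DDX4, DDX6, DDX10, DDX19A, DDX21, DDX25, DDX28, DDX31, DDX42, DDX43, DDX46, DDX50, DDX51, DDX52, DDX60, DHX8, DHX29, DHX32, DHX34, DHX35, DHX38, DHX40, DHX57 and DHX58. Of the 44, 41 never reached a level of 5. The 3 just outside, with 1 array at 5 or more, were DDX3X 212515_s_at, DDX28 40255_at (5.12 at 1 h replicate 1) and DDX50 221699_s_at (5.72 at 6 h replicate 2). Just inside were DDX1, with 3 such arrays, and DDX23, at 5.14, 5.15 and 5.09 on 3 arrays. Without the filter, 3, 4, 5 and 3 of all 66 helicase probe sets were lower and 0 higher at 0.5, 1, 3 and 6 h by limma, against 1.17%, 3.42%, 2.66% and 2.4% lower and 0.207%, 0.504%, 0.401% and 0.644% higher of all 22215. The 66 include the 44 below the filter, whose levels are near background. The calls of DDX24 200694_s_at, those of DHX15 201385_at and those of DDX17 208718_at at 1 h and 6 h were lost without the filter. DDX5, DDX39B and DDX47 shared their probe sets with other symbols and are not named from them, and DDX18 and helicases without a probe set of a single symbol are not analysed here.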

How the data were processed

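RNA of 10 MOLT-4 samples was read on Affymetrix arrays. What the authors deposited is a score for each probe set, with GCRMA as the tool that the submitters' processing notes name; its version and the scale are not given in the sources used here. Square roots were read as log2. Control probe sets were left out, and probe sets with a level of 5 or more on at least 2 arrays were tested (4276, for 2819 genes of 1 symbol). Times were compared with limma 3.58.1 in R 4.3.3 (lmFit, eBayes, all 10 arrays, time as the factor), with Benjamini-Hochberg adjustment over all tested probe sets in each comparison and calls under 0.05. The fit was tested on simulated data. Symbols came from the platform annotation, updated through RefSeq gene IDs: of 22283 probe sets 19071 had 1 symbol, 1043 several and 2169 none. Promoters came from the RefSeq table, where 37 of the 40 helicase genes had an entry.

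The members, classes and lists were chosen with earlier results of these data known. Values on every array were given for the brightest probe set (highest mean over all arrays) of each gene called against 0 h, and for DHX15, DDX17, DDX3X, DDX6 and DDX21 (as a range where below the filter) whatever their values; DDX5, DDX18 and DDX39B were named in that rule too and are not analysed here. The arrays of DDX41, DDX54, DDX39A, DDX1 and DHX9 were added after their values were seen. From each other list up to 4 genes of the largest moderated t at 1 h were named. The alternatives were other scales, filters, scalings and a floor, covariates, a replicate block, another variance model, fewer arrays and the submitters' fold rule. The correlation of same-numbered replicates' deviations between times ran from -0.23 to 0.15 (median 0.06), which shows no pairing by number. With 2 arrays per time it cannot exclude that same-numbered samples belong together.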

Additional observations from a re-analysis of the deposited data

Results flagged for a closer look

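The change against 0 h differed between 6 h and 1 h, by the test of 6 h against 1 h itself, for 4 probe sets of 3 helicase genes. It was higher at 6 h by 1.83 for DHX15 201386_s_at, by 1.19 for DHX15 201385_at and by 0.84 for DDX17 213998_s_at, with limma adjusted p = 0.00225, 0.0240 and 0.00576. For DDX39A it was lower at 6 h, by -0.47 (adjusted p = 0.0474). These 4 were 18.2% of the 22 helicase probe sets, against 23.9% of all 4276 tested. The call of DDX39A was lost in 12 of 22 other settings and that of DHX15 201385_at in 6 of 22. That of DDX17 213998_s_at was lost in 1 of 21, and that of DHX15 201386_s_at in 0 of 21. DHX15 201386_s_at passed the filter only through its 0 h and 6 h arrays, so its kept call is not support. No group was large enough to test for a single array far from the others.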

How the results depend on the processing

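Over 22 called changes of helicase probe sets and the 474 values they took under other settings, 388 calls stayed, 86 were lost and 0 turned sign. Many settings leave the change itself as it was, so its sign could not turn in them. These were other filters, the replicate block, the other variance model, only the arrays compared, and an array of another time left out. Calls against 0 h at 0.5, 1, 3 and 6 h, main counts 3, 5, 5 and 3, ran from 2 to 4, 2 to 6, 3 to 7 and 1 to 4 without single arrays; the lowest counts came without 0 h replicate 1, and at 0.5 h also without 0.5 h replicate 2, at 1 h without 1 h replicate 2 and at 6 h without 6 h replicate 1. With equal array medians there were 5, 10 and 5 calls at 0.5, 1 and 6 h, and with quantile normalization 5, 8 and 5. Of all 4276 probe sets, 15.3%, 19.5% and 14.1% were lower with equal array medians at these times. Higher were 6.9%, 32.5% and 14.3%, so more calls are not particular to helicases. The shares with quantile normalization are not given here. With the 18S covariate there were 1, 1, 0 and 0 (3 and 1 at an unadjusted p under 0.05 at 3 and 6 h), where 9, 87, 0 and 6 of all 4276 probe sets were called, and with the spike-in covariate 0 at 3 h (3 unadjusted) and 0 at 6 h (2 unadjusted), where 0 and 21 of all were called. At a filter of 7 there were 3 calls at 1 h, and by the submitters' fold rule 3, 2 and 1 at 1, 3 and 6 h. Between 3 h and 1 h a filter of 7 gave 1. Between 6 h and 3 h, main count 2, there was 1 with no filter, with the floor and with the spike-in covariate, 0 with only the arrays compared, and 0 to 3 without single arrays, 0 being without 3 h replicate 2. Between 6 h and 1 h, main count 4, the spike-in covariate gave 1 and single arrays 2 to 4, the lowest without either 1 h array or 6 h replicate 2. The F test, main count 7, gave 4 at a filter of 7, 2 with the spike-in covariate and 3 to 8 without single arrays, 3 being without 0 h replicate 1 or 1 h replicate 2. Whether the numbers pair the samples is not known. With the replicate block the counts against 0 h were 3, 5, 6 and 4, those between later times 0, 0, 2 and 4, and that of the F test 6. The splicing median at 0.5, 1, 3 and 6 h was 0.26, 0.22, -0.078 and 0.083 with equal medians, 0.30, 0.27, -0.040 and 0.057 with quantile normalization, and -0.44, -0.68, -0.79 and -0.032 at a filter of 7. It was -0.012 at 0.5 h, -0.17 at 3 h and -0.076 at 6 h with no filter, -0.22 and -0.074 at 3 and 6 h with the floor, and -0.47 and -0.25 with all probe sets. Without single arrays it ran from 0.030 to 0.21, -0.23 to 0.055, -0.49 to -0.31 and -0.29 to 0.00013. The nucleolar median was 0.17, 0.31, 0.31 and 0.16 with equal medians, 0.19, 0.27, 0.31 and 0.17 with quantile normalization, 0.15, 0.15 and 0.0026 at 1, 3 and 6 h with a filter of 7, and -0.050 and -0.19 at 0.5 and 3 h with all probe sets. Without single arrays it ran from -0.037 to 0.079, -0.11 to 0.084, -0.037 to 0.027 and -0.15 to -0.026. The translation median with no filter, over DDX3X, DDX6 and DHX29, was 0.0044, 0.025, 0.044 and -0.0085. Each time it was the value of DHX29 212648_at, which lay between 2.67 and 2.77 on all arrays, so it describes background. With the filter, where DDX3X alone remains, the translation median was -1.27 with equal medians and -1.29 with quantile normalization at 1 h. It ran from -1.73 to -1.46, -1.68 to -1.43, -1.83 to -1.30 and -1.59 to -1.16 without single arrays. The causes of these shifts were not tested, except that fewer samples or genes enter where arrays are left out or the filter is raised. Probe sets near or below a level of 5 give little more than background, which limits the changes of DHX15 201386_s_at, DDX1 and DDX23.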

Other observations

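Of the 44 helicase probe sets below the filter, replicate 2 was above replicate 1 at 6 h in 8 and below it in 36, with a median difference of -0.03. In 3 of them replicate 2 was higher by over 0.5, and in 0 lower by over 0.5. DDX50, a nucleolar paralogue of DDX21, had 4.91 and 5.72 at 6 h in replicates 1 and 2, against 4.16 and 4.55 at 0 h, and its 6 arrays of 0.5 h to 3 h lay between 3.51 and 3.93. DHX40 had 3.17 and 3.92 at 6 h, against 2.98 and 2.93 at 0 h. DHX35 had 2.15 and 2.90 at 6 h, against 3.01 and 3.17 at 0 h. Past the filter, DDX1 had 4.40 and 5.67 at 6 h, against 5.24 and 5.00 at 0 h. These genes were chosen after their values were seen, and no test is given for those below the filter.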
